A study of Mus musculus with 7 samples.

Results

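The genes described here are 10 transcription regulators and clock proteins of the mouse: the E-box repressors Bhlhe40 and Bhlhe41, the D-box repressor Nfil3, the PAR-bZIP activators Dbp, Tef and Hlf, the period genes Per1 and Per2, and the nuclear receptors Nr1d1 and Nr1d2 (REV-ERB alpha and beta). Their probes were found through the transcript accession of each array spot, which gave 12 probes for the 10 genes, out of 39429 probes on the array and 25347 genes tested. Dbp and Bhlhe41 had 2 probes each and the other 8 genes had 1. No measured difference entered the choice of genes, though earlier results of these data were known when it was made.

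RNA came from group 2 innate lymphoid cells (ILC2s), lymphocytes of tissues that lack antigen receptors and secrete type 2 cytokines. The knockout samples came from Gfi1 GFP/GFP mice, in which a GFP cassette inserted into the Gfi1 locus removes the function of this transcriptional repressor and reports its promoter, and each pooled 6 mice (n = 3 arrays). The control samples came from Gfi1+/+ mice and each pooled 3 mice (n = 4 arrays). All mice of both genotypes were injected with IL-25 daily for 4 days, ILC2s were sorted on day 5 from the mesenteric lymph nodes as lineage-negative cells positive for Sca-1, ICOS, CD127 and c-Kit, and they were then grown for 6 days in IL-2 (50 ng/ml), IL-7 (10 ng/ml) and IL-25 (50 ng/ml). Neither the age of the mice nor the hour of harvest is given in the labels.

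The mammalian clock is a loop of transcription. The CLOCK and ARNTL proteins switch on genes that carry E-box sequences, among them the Per and Cry genes, whose proteins then block CLOCK and ARNTL. BHLHE40 and BHLHE41 compete for the same E-boxes, and the NR1D receptors repress Arntl and Nfil3 at ROR elements. Further down, DBP, TEF and HLF activate genes with a D-box, and NFIL3 represses them at the same sequence. In lymphocytes several of these factors have roles outside the clock: mouse Nfil3 is required for innate lymphoid cells to form, and mouse Bhlhe40 restrains Il10 and supports cytokine production in T cells.

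Each array carried ILC2 RNA in red and a universal mouse reference RNA, the same for all arrays, in green. Levels are given as log2 of the ILC2 signal over the reference signal, and differences as the knockout mean minus the wild-type mean on that log2 scale. A ratio ranks samples for 1 probe and does not rank genes against each other. A gene is said to have passed when its adjusted p in limma, over all tested genes, was under 0.05. In these bulk samples fewer cells of a kind and less RNA per cell cannot be told apart.

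To show what the members share in their promoters, the 250 bases before the transcription start were searched in the RefSeq promoter table (GRCm38.p6), which matched 8 of the 10 members. Bhlhe40 and Per2 were not matched. The letters searched on both strands were CACGTG for the E-box, CACGTT for an E-box variant, TTACGTAA, TTATGTAA and TTACATAA for the D-box, TGACGTCA for the cyclic AMP response element (CRE), TAGGTCA for a ROR element and AATCNCNGC for a GFI1 site. The E-box and E-box variant share their first 5 letters and were counted apart. An E-box stood before Bhlhe41, Per1 and both starts of Tef, and 6.02% of all 32851 promoter windows hold one. The E-box variant stood before Nr1d1 (3.85% of all windows), the CRE before Hlf (1.55%), and both a ROR element (2.23%) and a GFI1 site (3.17%) before Nfil3. No member window held these D-box letters, which 0.931% of all windows hold. The stretches follow, 5′ to 3′ on the gene's strand, with the motif in capitals.
Bhlhe41 E-box, chr6:145865543-145865598, minus strand: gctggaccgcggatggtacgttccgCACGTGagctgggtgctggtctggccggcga
Per1 E-box, chr11:69098758-69098813, plus strand: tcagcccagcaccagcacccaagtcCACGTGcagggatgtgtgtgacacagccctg
Tef E-box, upstream start, chr15:81802521-81802576, plus strand: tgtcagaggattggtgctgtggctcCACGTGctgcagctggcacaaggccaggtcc
Tef E-box, downstream start, chr15:81811251-81811306, plus strand: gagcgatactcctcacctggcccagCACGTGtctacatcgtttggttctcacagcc
Nr1d1 E-box variant, chr11:98775378-98775430, minus strand: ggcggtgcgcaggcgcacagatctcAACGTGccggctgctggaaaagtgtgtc
Hlf CRE, chr11:90390918-90390951, minus strand: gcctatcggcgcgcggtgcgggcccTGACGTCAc
Nfil3 GFI1 site, chr13:52981089-52981147, minus strand: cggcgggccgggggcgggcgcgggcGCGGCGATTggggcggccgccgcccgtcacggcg
Nfil3 ROR element, chr13:52981040-52981076, minus strand: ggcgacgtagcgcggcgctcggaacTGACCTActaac

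These matches describe letters near the starts and are not evidence of binding in these cells. The 3 genes with a perfect E-box here, Bhlhe41, Per1 and Tef, did not pass the test between genotypes.

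The sample channel was well above background for 67.4% to 80.9% of probes on an array. Log ratios over all tested genes correlated at 0.969 to 0.980 among knockout arrays, 0.979 to 0.989 among wild-type arrays and 0.942 to 0.969 between the genotypes. The Gfi1 probe itself read 4.77-fold higher on the knockout arrays, with groups that did not overlap (limma adjusted p = 1.63e-05). The cassette leaves the Gfi1 promoter in place, so a loss of signal at this probe was not available as a check of the labels. The cause of the rise was not tested. All 13 ILC2 markers, among them Gata3, Rora, Il5, Il13, Icos and Il7r, were above background on all 7 arrays. Of these 13, 4 fell in the knockout: Il1rl1, the IL-33 receptor (difference -1.89), Gata3 (-0.93), Ly6a, which encodes Sca-1 (-0.72), and Areg (-0.42). Il17rb, a chain of the IL-25 receptor, rose (1.85). Of markers of other cells, Ncr1 (NK cells), Fcer1a (mast cells) and Hbb-bs (red cells) were above background on no array. The rest of these lists was above background on all 7 arrays: Klrb1c and Eomes, Cpa3, Mcpt4 and Tpsb2, and Hba-a1 and Alas2. Summed over the NK markers, the signal was 256 to 319 units on knockout arrays and 137 to 208 on wild-type arrays. No tested NK marker passed. The summed signal of 7 T cell markers was 11409 to 23064 on knockout arrays and 8920 to 20073 on wild-type arrays. The B cell marker Cd79b had a signal of 19849 to 27457 units on knockout arrays and 22704 to 28514 on wild-type arrays. Among 6 myeloid and 4 B cell markers none passed. Cpa3, of 4 mast cell markers, and Hba-a1, of 3 red cell markers, fell (differences -0.51 and -0.85), and Pdgfrb, of 3 stromal markers, rose (difference 1.78). The part of these marker shifts in the results was not tested. Arrays lay on 3 slides, with knockout 1 and wild-type 4 on slide 1, knockout 2, knockout 3 and wild-type 1 on slide 2, and wild-type 2 and 3 on slide 3.

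Of the 10 members, 2 passed and both fell in the knockout: Bhlhe40, 1.86-fold, and Hlf, 1.31-fold. None passed in the other direction. Over all tested genes, 7.53% passed, 4.24% lower and 3.29% higher. The median difference of the members was -0.20, against -0.01 over all tested genes, and 7 members had a negative difference and 3 a positive one. The groups did not overlap in Bhlhe40, Hlf and Nr1d1, which is 3 of 10 members, against 18.3% of all tested genes. An unadjusted p under 0.05 was found for 5 members (limma), against 19.5% of all tested genes. With the slide as a block no member passed in limma (2 at an unadjusted p under 0.05). Under that block 1.89% of all tested genes passed and 11.3% had an unadjusted p under 0.05.

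**Figure D1:**
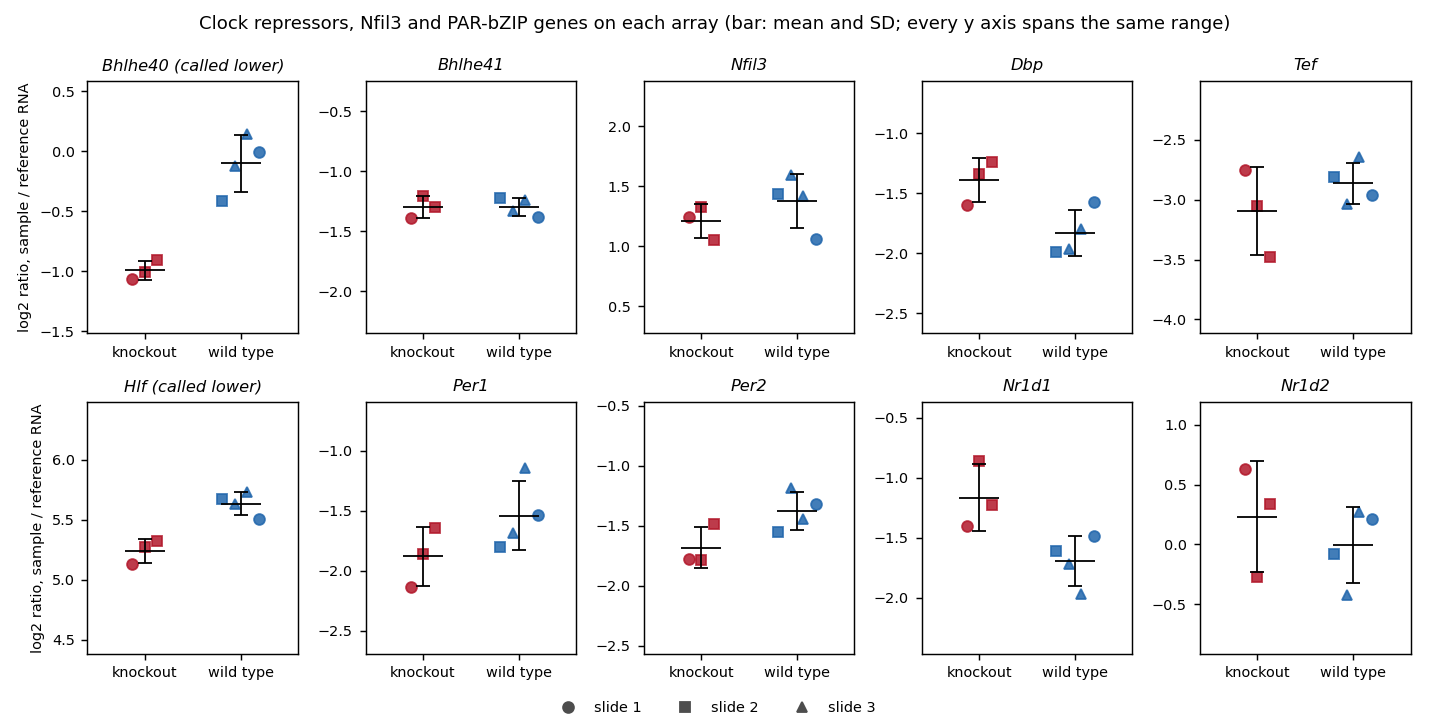
Each point is 1 array, placed by its log2 ratio of sample over reference RNA, with knockout left of wild type, shapes for the 3 slides, bars for the mean and SD (n = 3 knockout, n = 4 wild type) and y axes that span the same range at different positions. All Bhlhe40 and Hlf points of the knockout lie under all wild-type points, and the Nr1d1 points of the knockout lie above all wild-type points.

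Bhlhe40 (chromosome 6) encodes the E-box repressor also called DEC1. Its log2 ratio was -1.06, -1.01 and -0.91 on the knockout arrays, against -0.42, -0.12, 0.14 and -0.0020 on the wild-type arrays. The highest knockout array lay below the lowest wild-type array, and the wild-type arrays were the more scattered. The means were -0.99 ± 0.08 (SD, n = 3) in knockout and -0.10 ± 0.24 (SD, n = 4) in wild-type cells. The difference of -0.89 had a 95% confidence interval of -1.18 to -0.61, a fall of 1.52-fold to 2.27-fold (limma adjusted p = 0.00306). The knockout cells thus stood at 1.99-fold under the reference RNA and the wild-type cells at 1.07-fold under it.

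The difference in Bhlhe40 lay in the sample channel. The scanner's processed signal in that channel was 2125 to 2609 units on the knockout arrays and 3037 to 4954 units on the wild-type arrays. The sample channel alone gave a difference of -0.89 and the reference channel a difference of 7.7e-05, which is about 0. Bhlhe40 stood at -1.06 within slide 1, where 1 knockout and 1 wild-type array lie, and at -0.54 within slide 2. Blocking on slide gave -0.76, which did not pass (limma adjusted p = 0.0657). Bhlhe40 passed in all 7 fits that each left out an array, with a smallest difference of -0.81.

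Bhlhe41 (chromosome 6), the DEC2 repressor and closest relative of Bhlhe40, was the member with the smallest difference under the scaling used here. Its log2 ratio was -1.39, -1.21 and -1.30 on the knockout arrays, against -1.23, -1.33, -1.24 and -1.39 on the wild-type arrays. The arrays of both genotypes were interleaved. The difference of -0.0012 had an interval of -0.19 to 0.19 (limma adjusted p = 0.997). The signal was dim, at 60.1 to 73.7 units on the knockout arrays and 35.9 to 64.5 units on the wild-type arrays, and wild-type array 2 was not well above background. The background offset of 50 draws ratios of such dim spots towards 0. With the scanner's log ratio the Bhlhe41 difference was 0.26 (limma adjusted p = 0.392), so the narrow interval holds for this scaling only. The second Bhlhe41 probe was above background on no array and was not tested.

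Within each array, the log2 ratio of Bhlhe40 minus that of Bhlhe41 was 0.33, 0.20 and 0.39 in knockout cells, against 0.81, 1.21, 1.38 and 1.38 in wild-type cells. The shift of -0.89 had the smallest p that 35 assignments of 7 arrays allow (two-sided exact permutation test, p = 0.0571, adjusted p = 0.171 over 6 pairs of related genes). This design cannot pass 0.05 in that test.

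Nfil3 (chromosome 13), which represses D-box genes and is needed for innate lymphoid cells to develop, was measured well above background on every array. It read 1.24, 1.33 and 1.05 on the knockout arrays, against 1.44, 1.59, 1.41 and 1.06 on the wild-type arrays. The lowest wild-type array fell at the level of the lowest knockout array, so the groups overlapped. Nfil3 differed by -0.17, with an interval of -0.46 to 0.12 (limma adjusted p = 0.559), which bounds a fall in the knockout at 1.37-fold. Slide 1 gave 0.18 for Nfil3 and slide 2 gave -0.25. In both genotypes the transcript was above the reference RNA, by 2.31-fold in knockout and 2.59-fold in wild-type cells.

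The 3 PAR-bZIP genes, which bind the same D-box as NFIL3, had differences of both signs. Hlf (chromosome 11), hepatic leukaemia factor, fell. Its log2 ratio was 5.13, 5.27 and 5.32 on the knockout arrays, against 5.67, 5.63, 5.73 and 5.51 on the wild-type arrays. All knockout arrays lay below all wild-type arrays, the closest being knockout array 3 and wild-type array 4. The means were 5.24 ± 0.10 (SD, n = 3) and 5.64 ± 0.10 (SD, n = 4), and the difference of -0.39 had an interval of -0.59 to -0.19 (limma adjusted p = 0.0261).

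Hlf stood 37.9-fold above the reference RNA in knockout and 49.7-fold above it in wild-type cells. Its reference signal was dim, at 348 to 450 units on knockout arrays and 371 to 525 units on wild-type arrays, while the sample signal was 21601 to 28143 units in knockout and 29081 to 39412 units in wild-type cells. The background offset draws such ratios towards 0, and the scanner's own log2 ratio was 5.70 to 5.97 in knockout and 6.01 to 6.29 in wild-type cells. No dye swap was made, so a fixed dye effect is part of any ratio to the reference but drops out of the difference between genotypes.

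In the sample channel alone the difference of Hlf was -0.65 (limma adjusted p = 0.0156), and in the reference channel it was -0.25 (limma adjusted p = 0.824). The genotype difference of Hlf was nearly the same within slide 1 (-0.38) and slide 2 (-0.37). Among the settings in which it did not pass were slide as a block (-0.37, limma adjusted p = 0.161), the scanner's log ratio (-0.31, adjusted p = 0.2), quantile scaling (-0.33, adjusted p = 0.064) and the replicate number as a block (-0.43, adjusted p = 0.0643). It also did not pass when any array but wild-type array 4 and knockout array 3 was dropped (highest adjusted p = 0.0712). Of 21 other settings, 9 passed.

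Dbp (chromosome 7), the D-site binding protein whose transcript follows the clock closely in liver, had a positive difference. The brighter of its 2 probes read -1.60, -1.34 and -1.24 on the knockout arrays, against -1.99, -1.96, -1.80 and -1.57 on the wild-type arrays. The 2 arrays of slide 1 met in the middle, and the others were apart. The difference of 0.44 had an interval of 0.15 to 0.72 and missed the threshold after adjustment (limma adjusted p = 0.0735). The second probe read -1.18, -1.36 and -1.13 in knockout cells, against -1.52, -1.73, -1.48 and -1.48 in wild-type cells, with no overlap and a difference of 0.33 (limma adjusted p = 0.0826 over probes). Slide 1 gave -0.03 for the brighter probe and slide 2 gave 0.70. Dbp passed on leaving out wild-type array 4 (adjusted p = 0.0421) or knockout array 1 (adjusted p = 0.0409), the arrays of slide 1. It also passed with quantile scaling (0.42, adjusted p = 0.0485) and with the replicate number as a block (0.52, adjusted p = 0.042).

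Tef (chromosome 15), thyrotroph embryonic factor, read -2.75, -3.06 and -3.48 on the knockout arrays, against -2.81, -3.04, -2.65 and -2.96 on the wild-type arrays. Knockout arrays held both a value near the top and the lowest one. The difference of -0.23 had an interval of -0.60 to 0.14 (limma adjusted p = 0.521), and it was 0.21 within slide 1 and -0.45 within slide 2. Tef lay under the reference RNA by 8.54-fold in knockout and 7.28-fold in wild-type cells.

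Within each array the gap between Dbp and Hlf was -6.73, -6.61 and -6.57 in knockout cells, against -7.66, -7.59, -7.53 and -7.08 in wild-type cells. The groups did not overlap, and the gap differed by 0.83 (two-sided exact permutation test, p = 0.0571, the smallest possible here, adjusted p = 0.171 over the 6 pairs). The gap between Dbp and Tef shifted by 0.67 (exact p = 0.114, adjusted p = 0.229) and that between Tef and Hlf by 0.16 (exact p = 0.514, adjusted p = 0.686), both with overlapping groups.

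Per1 (chromosome 11) and Per2 (chromosome 1) encode the period proteins that close the loop by blocking CLOCK and ARNTL. Per1 read -2.14, -1.86 and -1.64 on the knockout arrays, against -1.80, -1.68, -1.14 and -1.53 on the wild-type arrays. The groups overlapped, with the lowest value in the knockout and the highest in the wild type. The difference of -0.34 had an interval of -0.71 to 0.04 (limma adjusted p = 0.316), and it was -0.60 within slide 1 and 0.05 within slide 2.

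Per2 read -1.78, -1.78 and -1.49 on the knockout arrays, against -1.55, -1.18, -1.44 and -1.32 on the wild-type arrays. A single knockout array lay among the wild-type ones. The difference of -0.31 had an interval of -0.57 to -0.05 and missed the threshold (limma adjusted p = 0.163). The scanner's log ratio gave -0.85, which did not pass either (limma adjusted p = 0.262). Signals were low, at 19.4 to 64.2 units in knockout and 49.4 to 105 units in wild-type cells, and knockout array 2 was not well above background. The ratio of Per1 to Per2 shifted by -0.03 between genotypes (exact permutation p = 0.971).

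Nr1d1 (chromosome 11) and Nr1d2 (chromosome 14) encode the REV-ERB receptors, which repress Arntl and Nfil3. Nr1d1 read -1.41, -0.86 and -1.23 on the knockout arrays, against -1.61, -1.72, -1.97 and -1.49 on the wild-type arrays. All knockout arrays lay above all wild-type arrays, with those of slide 1 closest to each other. The means were -1.17 ± 0.28 (SD, n = 3) and -1.70 ± 0.21 (SD, n = 4). The difference of 0.53 had an interval of 0.19 to 0.87 and missed the threshold after adjustment (limma adjusted p = 0.0676). It was 0.08 within slide 1 and 0.56 within slide 2, and it passed on leaving out knockout array 1 (0.65, adjusted p = 0.04).

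Nr1d2 read 0.63, -0.27 and 0.34 on the knockout arrays, against -0.08, -0.42, 0.27 and 0.21 on the wild-type arrays. Both groups spread widely and overlapped. The difference of 0.24 had an interval of -0.27 to 0.74 (limma adjusted p = 0.655). It was 0.035 without knockout array 1, 0.097 without wild-type array 2 and 0.49 without knockout array 2. The shift of Nr1d1 against Nr1d2 was 0.29 (exact permutation p = 0.571, adjusted p = 0.686).

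**Figure D2:**
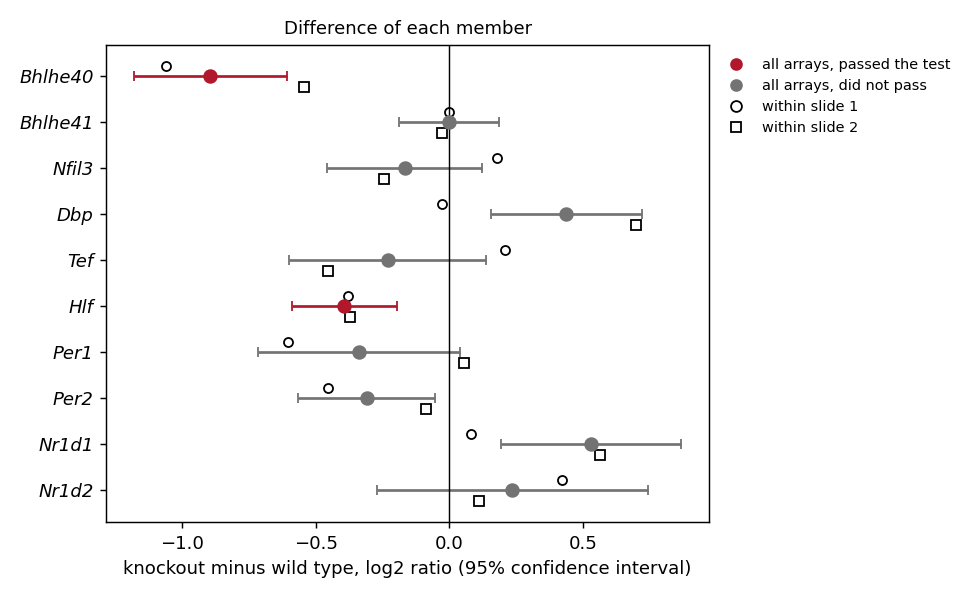
Filled points are knockout minus wild type differences of the log2 ratio over all 7 arrays with 95% confidence intervals, red where the gene passed, and open symbols are the differences within slide 1 (1 knockout and 1 wild-type array) and slide 2 (2 knockout arrays and 1 wild-type array), which have no test. Bhlhe40 and Hlf lie left of 0 in both slides, whereas Nfil3, Dbp, Tef and Per1 have slides on both sides of 0.

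Within a genotype, members varied from array to array in their own ways. After each group's mean was taken away, Pearson r over the 7 arrays was computed for every pair of members. The values furthest from 0 were 0.85 (Bhlhe40 and Per1), 0.82 (Bhlhe41 and Hlf), -0.80 (Tef and Per2) and -0.77 (Nfil3 and Dbp). With 7 arrays that share a reference RNA, these values are descriptions. By the same measure, the 5 of 16639 other genes with the pattern most like that of Bhlhe40 were Tmem218, Oit3, Cfap45, Txnip and Pde11a, with r of 0.98 to 0.99. Oit3 also fell between genotypes, by 1.22 on the log2 scale (limma adjusted p = 0.00235). The 5 most like Nfil3 were Il18, Pacsin3, Nrap, Pik3c2b and Hs3st3a1, with r of 0.98 to 0.99. Of these, Hs3st3a1 rose between genotypes, by 0.62 on the log2 scale (limma adjusted p = 0.0477). An r above 0.9 was reached by 115 genes with Bhlhe40 and by 159 genes with Nfil3.

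Other genes of the clock machinery gave the setting of these changes. Of 26 listed genes 25 were tested (Arntl2 was not), and 3 passed: Ciart, Gsk3b and Csnk1e, which all fell. This is 12% of those tested, against 7.53% of all tested genes, and the median difference was -0.03, against -0.01 over all. Blocking on slide, none of the 25 passed in limma, against 1.89% of all tested genes. Under that block an unadjusted p under 0.05 was found for 5 of the 25, against 11.3% of all. Without the block it was also found for 5 of the 25 (limma), against 19.5% of all tested genes.

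The activators at the head of the loop did not pass. Clock read 0.57, -0.15 and 0.17 in knockout cells, against 0.06, -0.13, 0.41 and 0.26 in wild-type cells. Its difference was 0.05, with an interval of -0.35 to 0.45, and turned negative in the sample channel alone. Arntl, its partner, differed by 0.12, with an interval of -0.11 to 0.35 (limma adjusted p = 0.61). Npas2, which can replace Clock, differed by -0.03. The intervals thus bound a change of Arntl in the knockout at 1.28-fold up.

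Among the repressors, Ciart, also called Chrono, which binds ARNTL and is itself switched on through E-boxes, fell 1.76-fold. It read -0.51, -0.69 and -0.79 in knockout cells, against 0.11, 0.39, -0.10 and 0.22 in wild-type cells. The knockout arrays lay well below the wild-type ones. The difference of -0.82 had an interval of -1.10 to -0.54 (limma adjusted p = 0.00427), and it was -0.73 within slide 1 and -0.85 within slide 2. Blocking on slide left -0.80 (limma adjusted p = 0.0645).

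The cryptochromes and Per3 did not pass. Cry1 differed by -0.00064, with an interval of -0.19 to 0.19, and its sign turned under most other scalings. Cry2, the second cryptochrome, differed by -0.22 (limma adjusted p = 0.27) and Per3 by -0.07. Timeless, which also works in DNA replication, differed by 0.56 with groups that did not overlap but did not pass (limma adjusted p = 0.128).

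The ROR receptors activate at the elements where NR1D proteins repress. Rora, which ILC2s need to develop, differed by -0.25 (limma adjusted p = 0.129).

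Of 9 kinases and turnover proteins 2 fell, which is 22.2%, against 4.24% of all tested genes called lower. Gsk3b, a kinase that phosphorylates several clock proteins, fell 1.58-fold by its brightest probe (limma adjusted p = 0.00992), while its other probes stood at -0.18 and -0.24 and did not pass. The brightest probe did not pass in the sample channel alone (limma adjusted p = 0.052). Nor did it pass with slide (adjusted p = 0.095) or replicate number (adjusted p = 0.0588) as a block. Csnk1e, casein kinase 1 epsilon, which marks PER proteins for breakdown, fell 1.40-fold (limma adjusted p = 0.0217), with a second probe at -0.38 (adjusted p = 0.0518 over probes). It did not pass when wild-type array 2 or 3 or knockout array 3 was dropped, nor with slide as a block (adjusted p = 0.275). Csnk1d, its close relative, differed by 0.07 by its brighter probe, while the other probe stood at -0.48 (adjusted p = 0.0156 over probes). None of the 6 corepressors and cofactors passed in limma, nor had any an unadjusted p under 0.05 (7.53% and 19.5% of all tested genes), with differences of -0.20 to 0.21. Among these were Ncor1 and Hdac3, through which NR1D receptors repress.

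**Figure D3:**
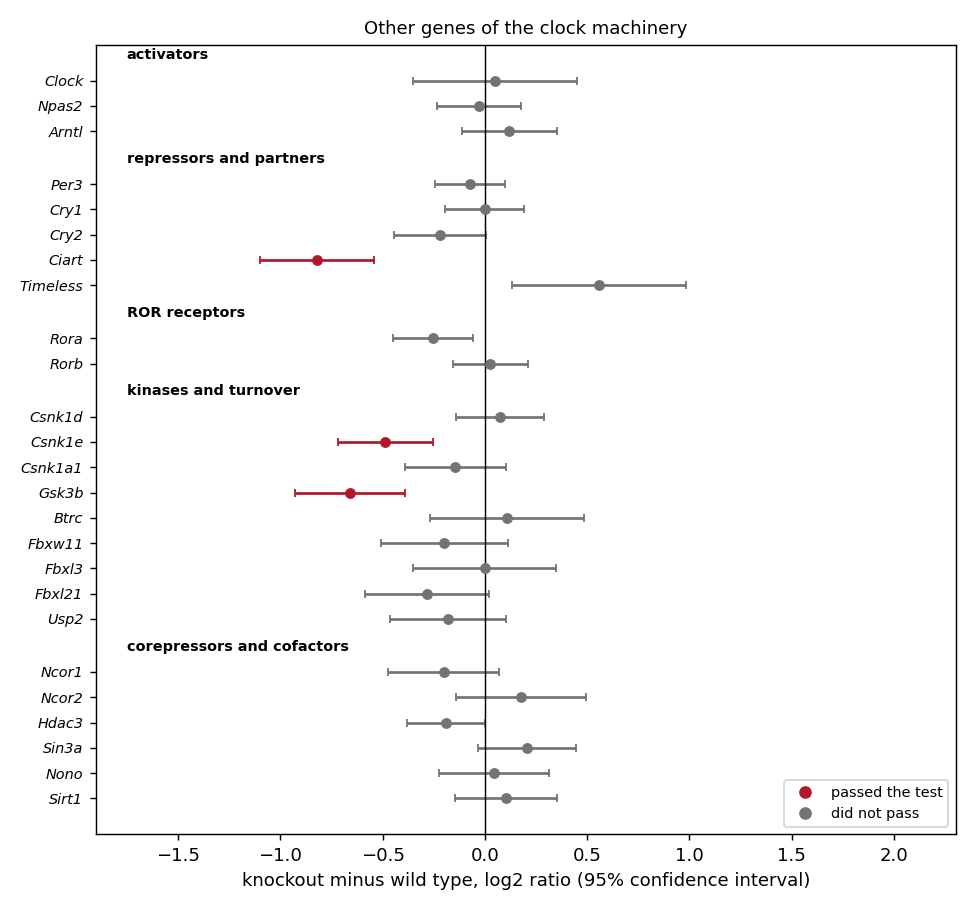
Points are knockout minus wild type differences of the log2 ratio with 95% confidence intervals (7 arrays), grouped by role, red where the gene passed. Ciart, Csnk1e and Gsk3b lie left of 0, and the intervals of Clock, Npas2 and Arntl hold 0.

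A list of 9 lymphocyte genes linked to NFIL3 or BHLHE40 was read from the same fit. Of these, 2 rose (22.2%) and none fell, against 3.29% of all tested genes called higher and 7.53% called in either direction. The median difference was 0.03, against -0.01 over all tested genes. Like the members and the clock machinery list, this list was chosen with earlier results of these data known, so its share is a description. Il10, the cytokine that BHLHE40 represses in T cells, rose 3.41-fold. It read 2.94, 3.31 and 3.28 in knockout cells, against 2.21, 1.45, 0.91 and 1.06 in wild-type cells, with all knockout arrays higher (limma adjusted p = 0.00456), and it passed with slide as a block too (1.42, adjusted p = 0.0299). Il3, a cytokine gene whose promoter NFIL3 binds in human T cells, rose 1.40-fold (limma adjusted p = 0.0249). Il3 did not pass when slide was a block (adjusted p = 0.281), nor when wild-type array 1, 2 or 3 or knockout array 3 was dropped. Whether the rises of Il10 and Il3 follow from Bhlhe40 or Nfil3, or from the loss of GFI1 itself, was not tested.

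The other 7 did not pass. Id2 differed by 0.03, with an interval of -0.35 to 0.41, and Tox by 0.37 (limma adjusted p = 0.322), both being factors of innate lymphoid development downstream of NFIL3. Eomes, a factor of NK cells, differed by 0.31 (limma adjusted p = 0.0995) and passed with the scanner's log ratio (0.60, adjusted p = 0.0108). The Eomes signal was dim, at 80.1 to 135 units on knockout arrays and 42.3 to 63.4 units on wild-type arrays. Its reference channel was well above background on 5 of the 7 arrays, which limits both values. The cytokines Il4 (-0.22), Il13 (-0.30) and Csf2 (-0.05) and the regulatory T cell factor Foxp3 (-0.05) completed the list. The sign of Csf2 turned with median centring (0.020).

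**Figure D4:**
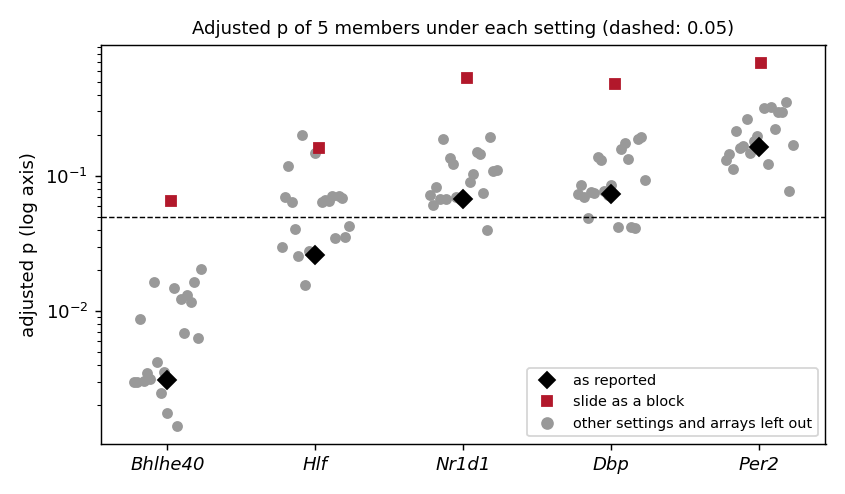
Each point is the limma adjusted p of a member under 1 setting, on a log axis, with the threshold of 0.05 dashed, where diamonds are the values as reported, red squares those with slide as a block and grey points the other settings and the fits without 1 array. Bhlhe40 lies under the line except with slide as a block, Hlf lies on both sides, and Per2 stays above it.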

How the data were processed

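Gene expression was measured on 7 two-colour Agilent arrays, with Cy5 for the ILC2 sample and Cy3 for the universal reference on each, per the labels. The deposited scanner files give intensity per spot from Agilent Feature Extraction. Its version is 11.0.1.1 in the headers and 10.7.3.1 in the submitters' processing notes. Per the file headers, the log10 ratio of Cy5 over Cy3 was made by that software after background subtraction and dye normalization. The deposited value table holds log2 ratios that equal these to within 0.0005 on 39030 probes with 1 spot, so it was not run apart (column medians 0.163 to 0.254). Scale and direction are thus known.

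Median signals were corrected with normexp (offset 50) and loess, control spots at weight 0, in limma 3.58.1 under R 4.3.3, and spots of a probe were averaged. Spots with feature outlier or non-uniform local background flags (2597) were left out first. A gene was tested if 3 or more arrays had the sample channel well above background and both groups had 2 values, and the probe with the brightest mean sample channel stood for it (30293 probes, 25347 genes, 16690 with a symbol). Probes were named through accessions in a RefSeq table (GRCm38.p6): 26581 had 1 gene, 0 several and 12848 none. Groups were compared with lmFit and eBayes, without a block, and p-values were adjusted by Benjamini-Hochberg across every tested gene. The fit was tested on simulated data. Figures were drawn with matplotlib 3.10.9.

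The members, lists and settings were chosen with earlier results of these data known, and the 6 gene pairs and the promoter motifs after their values were seen. Named genes were all members, Gfi1, list genes that passed, up to 6 further per list by smallest p, 5 fixed clock genes, and the 5 genes most like Bhlhe40 and Nfil3. A few further ones (Npas2, Id2, Csnk1d and corepressors) were named after their values were seen. A listed gene is not reported here and is left out of the counts. Replicates are separate pools of mice per the labels. The number of arrays limits the precision. Scan times follow the slides, so slide and scan are 1 batch. Alternatives changed the background correction, scaling, flags, filter on dim probes, variance model, block (slide or replicate number) and arrays included.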

Additional observations from a re-analysis of the deposited data

Results flagged for a closer look

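Rora read 3.45 on wild-type array 4, against 3.25 to 3.27 on the other 3 wild-type arrays, which made that array stand apart from its group by Dixon's test (ratio of gap to range 0.896, above the critical value for 4 samples). It was the only one of 32 genes examined, the 10 members included, in which a wild-type array stood apart, and chance flags about 1 in 20. Without that array the Rora difference was -0.20 and, as with all arrays (-0.25), did not pass in limma. The knockout group, with 3 arrays, was not examined in this way.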

How the results depend on the processing

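With slide as a block 478 genes passed instead of 1908 in limma, no member (2 at an unadjusted p under 0.05), no clock machinery gene (5 at an unadjusted p under 0.05) and 1 linked lymphocyte gene. With the replicate block the counts were 1081 genes, 2 members and 1 clock machinery gene. Those members were Bhlhe40, lower, and Dbp, higher (adjusted p = 0.042), while Hlf did not pass (adjusted p = 0.0643). Same-numbered arrays of the genotypes deviated together with r of 0.04, 0.24 and 0.02, and the other pairs of arrays with r of -0.24 to 0.27. With so few arrays these values cannot show whether the replicate numbers pair the samples. With wild-type array 4 and knockout array 3 both dropped, a pair doubted in earlier work on these files (knockout array 3 has 1 scanner quality metric out of range), 1103 genes and 1 clock machinery gene passed. The member count was 1 with normexp offset 16, median centring, the scanner's log ratio or eBayes with trend and robust, each time without Hlf. With quantile scaling it was 2, with Dbp higher (adjusted p = 0.0485) and Hlf not passing (adjusted p = 0.064). Leaving out 1 array gave 1252 to 1888 genes, 1 to 3 members, 2 to 3 clock machinery genes and 1 to 2 linked genes. Without wild-type array 4 there were 1266 genes and without knockout array 2 there were 1252. Median centring made 55.4% of 1615 calls higher, against 43.7% as reported. Among members that kept their sign, 4 uncalled differences moved from the reported value by a factor over 1.5 on leaving out an array. These were Nr1d2 (0.035 to 0.49), Tef (-0.40 to -0.040), Nfil3 (-0.27 to -0.091) and Per1 (-0.46 to -0.21). Other genes that moved as much included Arntl (0.044 to 0.18), Tox (0.24 to 0.52) and Per3 (-0.099 to -0.044). Over these settings and the fits without 1 array, signs turned only for genes near 0 that passed nowhere. Within single slides, signs also turned for Nfil3 (0.18), Dbp (-0.03) and Tef (0.21) in slide 1 and for Per1 (0.05) in slide 2. Bhlhe41 stood at 0.081 without background correction, 0.047 with offset 16, 0.049 with quantile scaling, 0.0030 with all flags, 0.26 with the scanner's log ratio and -0.045 to 0.044 on leaving out an array. Cry1 stood at 0.084, 0.015, 0.016, 0.00014 and 0.29 under the same settings, and at 0.063 with median centring, 0.12 in the sample channel, 0.092 with slide as a block and -0.046 to 0.049 on leaving out an array. Csf2 stood at 0.020 with median centring, 0.083 with the replicate block, 0.079 without that pair and -0.12 to 0.083 on leaving out an array. Foxp3 (0.043) and Clock (-0.0076) turned in the sample channel, and Clock ran from -0.14 to 0.22 on leaving out an array. The causes were not tested. Low signal in the sample or reference channel limits Bhlhe41 and Per2 among the members, and also Cry1, Npas2 and Eomes.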
